A study of Mus with 14 samples.

Results

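NF-kB is a family of dimeric transcription factors that carries signals from the 2 tumor necrosis factor (TNF) receptors to the nucleus. In resting cells inhibitor proteins hold the dimers in the cytoplasm, and a kinase complex recruited below the receptors marks these inhibitors for destruction. The freed dimers then switch on cytokines, chemokines, surface proteins and survival genes, and also their own inhibitors, which closes a negative feedback loop. In blood-forming cells the pathway is best known for the response of myeloid cells to infection and for effects on stem cell survival. The 39 genes described here, of 32285 in the files, are 5 subunits, 5 inhibitors or inhibitor-like proteins, and 29 targets: 13 cytokines or chemokines, 8 surface proteins and 8 intracellular proteins. The genes were given as a list. In the main fit, with low-count genes filtered out, a single gene of the list, Tnfaip2, differed between genotypes past the threshold of edgeR's test. Some other fits with that filter called further members, among them Rel, Clec4e and Ccl3. Between lineages, 31 of the 39 were tested in at least 1 comparison.

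The mice are a model of clonal hematopoiesis driven by mutation of Dnmt3a, a DNA methyltransferase. All 4 groups held CD45.2+ donor marrow that had been mixed with an equal share of CD45.1+ competitor marrow, passed through aged, lethally irradiated CD45.1+ primary recipients, and moved on to aged, lethally irradiated secondary recipients. Every group, controls included, received a single poly(I:C) injection after the first transplant, which switches on the interferon-driven Mx-Cre recombinase in cells that carry it. The groups were the Cre control MxCre (3 mice), Dnmt3a (4 mice), Dnmt3a;Tnfr1KO (3 mice) and Dnmt3a;Tnfr2KO (4 mice), the last 2 also lacking, by their labels, 1 of the 2 TNF receptors in the donor cells; whether the hosts carry any mutation is not given in the sources used here. The exact Dnmt3a allele is not given there either, nor is which primary recipients supplied which mice, so the p-values measure the spread between the secondary recipients sampled. Lin-Kit+CD45.2+ marrow cells, a gate for stem cells and early progenitors, were profiled with droplet 3′ RNA sequencing, 1 library a mouse.

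The 14 libraries held 86693 barcodes, with total UMIs (unique molecules counted) from 62416022 to 162869740 a library. After filters, 66895 cells remained, from 1924 to 7265 a library, and any pair of libraries shared from 1 to 16 barcodes. The Tnfr2 transcript Tnfrsf1b lay between 3.94 and 5.45 CPM (UMIs per 1000000 UMIs of the summed cells) in Dnmt3a;Tnfr2KO and between 10.2 and 17.3 elsewhere. The Tnfr1 transcript Tnfrsf1a lay between 33.1 and 37.9 CPM in the libraries labelled Dnmt3a;Tnfr1KO and between 37.99 and 64.1 in the others, and was not called lower against Dnmt3a (log2 fold change -0.19, adjusted p = 0.596, edgeR), so it does not mark that label. A 3′ read can lie outside a deleted part, and what the deletions remove is not stated. The Dnmt3a transcript was between 29.5 and 38.7 CPM in the Dnmt3a group and between 18.7 and 30.8 elsewhere, and Tnf itself between 1.37 and 5.95 in all libraries. The libraries that stood apart in the members' levels were Dnmt3a replicate 4, Dnmt3a;Tnfr1KO replicate 1 and Dnmt3a;Tnfr2KO replicate 3. Several results that rest on them are given with and without them.

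Cells were also grouped into lineages by 15 marker lists of 129 genes, none of which is a member. The gate compares each list with its own spread over all cells, so a lineage's own markers need not be its most abundant. Granulocyte markers had the higher median in lymphoid-primed-like cells (33.6 UMIs per 10000, own markers 4.1), monocyte progenitor-like cells (182, own 15.8) and basophil/mast-like cells (21.4, own 14.2). The same held in eosinophil progenitor-like cells (150, own 49.9), which were too rare to test. B-progenitor markers had the higher median in mature B-like cells (84.7, own 59.1). The part of these markers' cells in the members' levels was not tested. Of the kept cells, 31.3% met no lineage's gate and 3839 lay just outside one. Stem and multipotent progenitor (HSC/MPP)-like cells numbered 3725, lymphoid-primed-like cells 2433, granulocyte progenitor-like cells 14916, monocyte progenitor-like cells 8416, erythroid progenitor-like cells 5343, megakaryocyte progenitor-like cells 3203 and basophil/mast-like cells 1893. The gate also let through cells with markers of mature types: 2186 neutrophil-like, 621 mature B-like and 247 T/NK-like cells. The 8 lineages tested had at least 20 cells in at least 12 libraries.

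In all cells together, no member passed the threshold (adjusted p under 0.05, edgeR's quasi-likelihood test) in any of the 4 genotype comparisons. In Dnmt3a against MxCre 0 of 37 members tested were called, where 2.5% of all 15618 genes were. The corresponding shares of all genes were 0.474% in Dnmt3a;Tnfr1KO against Dnmt3a, 0.826% in Dnmt3a;Tnfr2KO against Dnmt3a and 0.198% in Dnmt3a;Tnfr2KO against Dnmt3a;Tnfr1KO, again with 0 of 37 members in each. At these shares about 1 called member or fewer would match the background, so the counts of 0 do not set the members apart. At an unadjusted p under 0.05, 4, 5, 7 and 6 of the 37 members passed in the same order (10.8%, 13.5%, 18.9% and 16.2%), beside 23.8%, 19.8%, 23.2% and 3.92% of all genes. Over all 14 libraries the first 3 shares lie below the background and the last, between the receptor groups, above it. Without Dnmt3a replicate 4 the counts were 2, 12, 5 and 11 of 37. They were 5, 3, 8 and 5 without Dnmt3a;Tnfr1KO replicate 1, and 4, 5, 5 and 4 without Dnmt3a;Tnfr2KO replicate 3. The counts thus changed when single libraries were left out. The shares of all genes in those fits are not given, so these counts cannot be set beside a background. With DESeq2, 1 (Tnfaip2), 2 (Tnfaip2 and Sod2), 2 (Cd40 and Sod2) and 0 of the 35 members given an adjusted p were called, beside 10.2%, 6.24%, 7.43% and 0.667% of all genes. The first 3 comparisons share the same 4 Dnmt3a libraries. Cxcl1, a neutrophil-attracting chemokine with 2 UMIs in all the data, and Il1a were too low to test.

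Separation was also counted without a model. The per-mouse levels of Dnmt3a and MxCre did not overlap for 5 of 37 members (Nfkbie, Rel, Tnip1, Tnfaip2 and Cd69), where this held for 20% of all genes. In Dnmt3a;Tnfr1KO against Dnmt3a it was 6 of 37 members (Nfkbie, Nfkb1, Tnip1, Tnfaip2, Clec4e and Csf1) beside 20.6% of all genes, and in Dnmt3a;Tnfr2KO against Dnmt3a 5 of 37 (Nfkbie, Nfkb1, Rel, Irf1 and Tnip1) beside 15.5%. Between the 2 receptor groups it was 3 of 37 (Cd40, Cd83 and Icosl) beside 5%. Cd40 and Cd83 were near the floor, with 2 to 16 and 7 to 25 UMIs a library in Dnmt3a;Tnfr2KO. Markers of mature B cells summed to 95.8 to 148 CPM in Dnmt3a;Tnfr1KO and to 47.8 to 67.9 CPM in Dnmt3a;Tnfr2KO, and their part was not tested. In the 8 lineages, Dnmt3a and MxCre did not overlap for 2 to 5 members and for 8.55% to 28.8% of all genes, and Dnmt3a;Tnfr1KO and Dnmt3a for 1 to 6 members and 4.86% to 27.9% of all genes. For Dnmt3a;Tnfr2KO and Dnmt3a it was 0 to 5 members and 3.45% to 20.3%, and for the receptor groups 0 to 4 members and 3.42% to 7.23%. The share of members was below that of all genes in 6, 7, 6 and 6 of the 8 lineages. In HSC/MPP-like cells it was above for Dnmt3a;Tnfr1KO against Dnmt3a (6 of 28 members, 21.4% beside 12.1%) and between the receptor groups (Relb, Ccl3, Cd69 and Clec4e, 14.3% beside 5.39%).

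Within lineages the member called was Tnfaip2, which encodes a cytoplasmic protein first found as induced by TNF. It lies on mouse chromosome 12 at chr12:111442450-111455018 (GRCm38.p6). Over 36 tests (4 comparisons in all cells and in 8 lineages) the members gave 1000 gene tests and 8 calls (0.8%), where 4711 of the 399348 tests over all genes (1.18%) were calls. All 8 were Tnfaip2: lower in Dnmt3a than in MxCre in 5 lineages, and higher in the libraries labelled Dnmt3a;Tnfr1KO than in Dnmt3a in 3. That Tnfaip2 alone was called holds for the main fit and depends on its settings. With the filter on low counts kept, a stricter lineage gate also called Rel and Clec4e (1.12% of member tests, beside 1.06% of all genes). Keeping doublets also called Ccl3 (0.886% beside 1.11%). Fitting only the 2 groups compared also called Clec4e and Ccl3 (1.19% beside 0.523%), and some fits with 1 library left out called further members. With no filter, 91 of 1348 member tests were calls (6.75%, beside 1.51% of all genes), 76 of them of genes that the filter keeps. Of the 91, Tnfaip2 gave 15, Cxcl2 11, Nfkbia and Ccl4 10 each, and Ccl3 8.

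In all cells, Tnfaip2 stood at 80.4, 65.6 and 56.5 CPM in the 3 MxCre mice. The 4 Dnmt3a mice had 40.9, 39.1, 21.3 and 25.7 CPM, all below every MxCre mouse. The 3 mice labelled Dnmt3a;Tnfr1KO had 43.3, 73.1 and 51.1 CPM, all above every Dnmt3a mouse, the nearest pair being 43.3 and 40.9. The 4 Dnmt3a;Tnfr2KO mice had 53.7, 68.6, 41.6 and 23.0 CPM, and replicate 4 alone lay within the Dnmt3a range. Group means were 67.5 ± 12.1 (SD, n = 3), 31.8 ± 9.74 (n = 4), 55.8 ± 15.5 (n = 3) and 46.7 ± 19.3 CPM (n = 4). None of these differences was called: Dnmt3a against MxCre had a log2 fold change of -1.20 (SE 0.31, adjusted p = 0.0555, edgeR), Dnmt3a;Tnfr1KO against Dnmt3a 1.01 (adjusted p = 0.118) and Dnmt3a;Tnfr2KO against Dnmt3a 0.77 (adjusted p = 0.149). In such sums over all cells, fewer cells of a type and less RNA per cell cannot be told apart. Tnfaip2 was highest in erythroid progenitor-like cells, whose markers summed to 1702 to 3350 CPM in MxCre, 584 to 22000 in Dnmt3a, 778 to 2491 in Dnmt3a;Tnfr1KO and 529 to 1179 in Dnmt3a;Tnfr2KO, and their part in the all-cell levels was not tested.

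**Figure D1:**
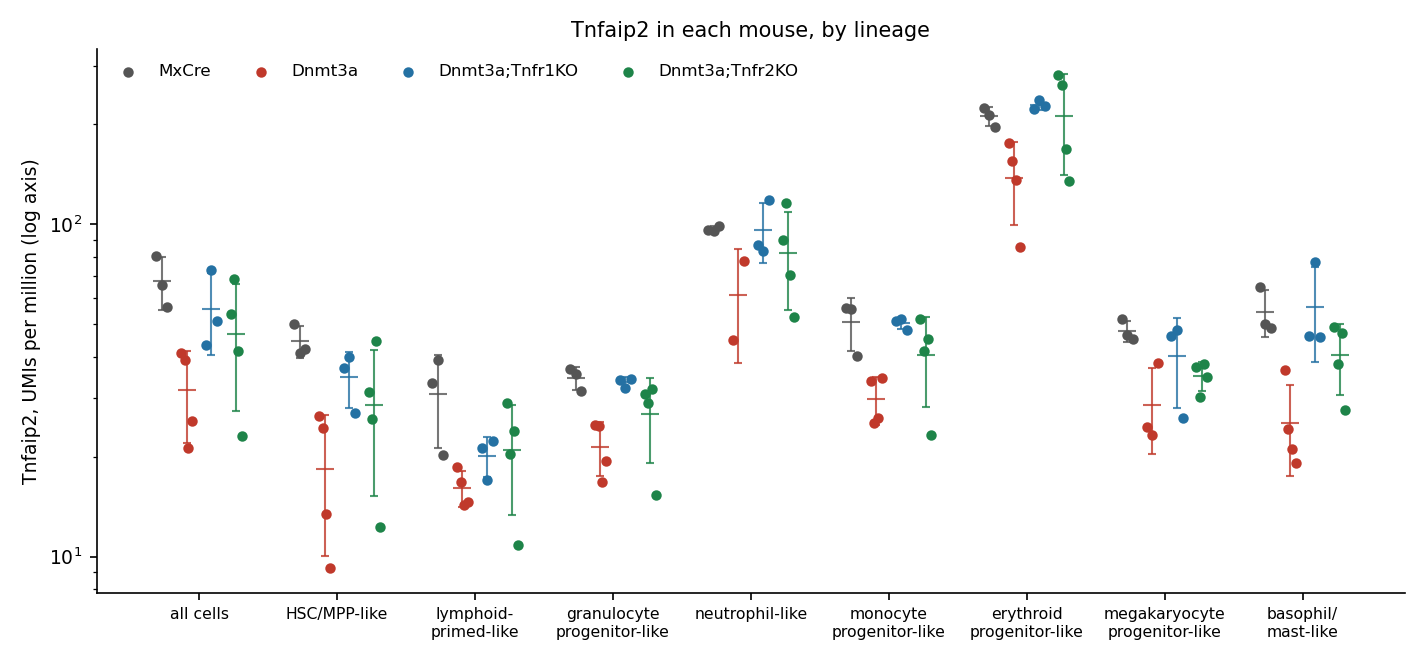
Tnfaip2 level in CPM (vertical log axis) in all cells and the 8 lineages (horizontal axis), coloured by genotype group. Each point is 1 mouse, each horizontal mark the group mean and each whisker the SD; in HSC/MPP-like cells the 4 Dnmt3a mice, from 9.24 to 26.5 CPM, lie below the 3 MxCre mice, from 41.1 to 50.2.

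In HSC/MPP-like cells, Tnfaip2 was 50.2, 41.1 and 42.3 CPM in MxCre. It was 26.5, 24.3, 13.5 and 9.24 CPM in Dnmt3a, again with no overlap. Tnfaip2 fell in Dnmt3a by 1.32 on the log2 scale (SE 0.29, adjusted p = 0.015, edgeR). It was the 1 member called of 28 tested there, where 4.73% of all genes were called. The libraries labelled Dnmt3a;Tnfr1KO had 37.0, 39.8 and 27.1 CPM, all above the Dnmt3a mice, but the difference was not called (log2 fold change 1.01, SE 0.34, adjusted p = 0.219). The Dnmt3a;Tnfr2KO mice had 31.4, 26.03, 44.5 and 12.3 CPM and overlapped with Dnmt3a (0.60, adjusted p = 0.411). Of all genes, 0.391% and 0.572% were called in these 2 comparisons and 0.0545% between the receptor groups, with 0 of 28 members in each. The call against MxCre was lost without MxCre replicate 3 or Dnmt3a replicate 3, with adjusted p up to 0.0619.

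In basophil/mast-like cells Tnfaip2 was 64.7, 50.1 and 48.9 CPM in MxCre and 36.4, 24.3, 21.1 and 19.1 CPM in Dnmt3a. The libraries labelled Dnmt3a;Tnfr1KO had 46.3, 77.0 and 45.9 CPM. Both neighbouring groups lay wholly above Dnmt3a. Tnfaip2 fell in Dnmt3a against MxCre by 1.39 on the log2 scale (SE 0.24, adjusted p = 0.0117, edgeR) and rose in Dnmt3a;Tnfr1KO against Dnmt3a by 1.41 (SE 0.24, adjusted p = 0.0068). Each was 1 call among 26 members, beside 0.951% and 0.513% of all genes. The Dnmt3a;Tnfr2KO mice, at 49.1, 38.1, 47.0 and 27.7 CPM, were not called against Dnmt3a (0.88, adjusted p = 0.103, edgeR). Without replicate 4, their lowest mouse, adjusted p was 0.0105 (edgeR), but leaving out the lowest mouse widens the difference by itself. The share of all genes called in that fit is not given. Over all libraries 0.513% of all genes and 0 members were called in that comparison. Between the receptor groups 0.0855% of all genes and 0 members were. The 2 calls were lost without MxCre replicate 1 (adjusted p = 0.153) and without Dnmt3a;Tnfr1KO replicate 2 (adjusted p = 0.0983), in that order.

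In granulocyte progenitor-like cells, the largest lineage, Tnfaip2 was 36.6, 35.4 and 31.5 CPM in MxCre and 24.9, 24.7, 16.8 and 19.4 CPM in Dnmt3a. The libraries labelled Dnmt3a;Tnfr1KO had 34.1, 32.3 and 34.3 CPM, within the MxCre range and above every Dnmt3a mouse. Tnfaip2 fell in Dnmt3a (log2 fold change -0.91, SE 0.20, adjusted p = 0.0208, edgeR), and rose in Dnmt3a;Tnfr1KO against Dnmt3a (0.89, SE 0.20, adjusted p = 0.0238). Each was 1 of 29 members, beside 5.8% and 4.59% of all genes. The Dnmt3a;Tnfr2KO mice had 30.9, 29.1, 31.9 and 15.4 CPM, with replicate 4 below all the Dnmt3a mice, and were not called (0.56, adjusted p = 0.0866). Without that mouse Tnfaip2 was called higher in Dnmt3a;Tnfr2KO as well (0.76, adjusted p = 0.0021), as it was with DESeq2 (adjusted p = 0.037). With edgeR over all libraries 5.17% of all genes and 0 members were called in that comparison, and 0.275% and 0 between the receptor groups. Leaving out any 1 MxCre mouse lost the first call (adjusted p up to 0.12). Leaving out Dnmt3a replicate 4 or any 1 Dnmt3a;Tnfr1KO mouse lost the second (up to 0.0966).

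In monocyte progenitor-like cells Tnfaip2 was 56.2, 55.9 and 40.1 CPM in MxCre, 33.8, 25.2, 26.1 and 34.5 CPM in Dnmt3a, and 51.3, 51.8 and 48.1 CPM in the libraries labelled Dnmt3a;Tnfr1KO. Tnfaip2 fell in Dnmt3a by 0.96 on the log2 scale (SE 0.21, adjusted p = 0.0383, edgeR) and rose in Dnmt3a;Tnfr1KO by 0.96 (SE 0.21, adjusted p = 0.0317), each 1 of 34 members beside 1.44% and 1.81% of all genes. The groups did not overlap in either comparison. Dnmt3a;Tnfr2KO mice had 51.9, 41.7, 45.3 and 23.3 CPM and were not called against Dnmt3a (0.66, adjusted p = 0.0779, edgeR). DESeq2 called Tnfaip2 higher there (adjusted p = 0.0202), as did edgeR without replicate 4 (adjusted p = 0.00379). Leaving out the lowest mouse widens the difference by itself, and the shares of all genes called in these 2 fits are not given. With edgeR over all libraries 1.97% of all genes and 0 members were called there, and 0.205% and 0 between the receptor groups. The calls of Dnmt3a against MxCre and of Dnmt3a;Tnfr1KO against Dnmt3a were the least stable. The first was lost without any of 10 of the 14 libraries (adjusted p up to 0.196, edgeR). The second was lost without any of 7 (up to 0.136). With the replicate number as a block both were lost, and with a stricter lineage gate the first. In the block and stricter-gate fits the adjusted p of the first was up to 0.0528, and with the block that of the second was 0.0631 (edgeR).

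In megakaryocyte progenitor-like cells, where Dnmt3a replicate 4 had too few cells, Tnfaip2 was 51.8, 46.3 and 45.2 CPM in MxCre and 24.6, 23.2 and 38.3 CPM in Dnmt3a. It fell in Dnmt3a by 1.01 on the log2 scale (SE 0.21, adjusted p = 0.0269, edgeR), 1 of 25 members beside 1.73% of all genes. No member was called in the other 3 comparisons, where 0.187%, 0.285% and 0.0393% of all genes were. The call was lost without any 1 MxCre mouse or without Dnmt3a replicate 1 (adjusted p up to 0.19).

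In the remaining lineages no member was called. Lymphoid-primed-like cells had 27 members tested, beside 0.252%, 1.38%, 1.28% and 0.177% of all genes called in the 4 comparisons in the order above. Neutrophil-like cells had 23 members tested in 12 libraries, with 2 of the 4 Dnmt3a mice (replicates 1 and 2 had 8 and 10 such cells, and replicate 4 is 1 of the 2 left), beside 0.0139%, 0.0695%, 0.0139% and 0% of all genes, and erythroid progenitor-like cells 21, beside 0%, 0.00923%, 0.0831% and 0.0461%. With so few calls over all genes, these 2 lineages could show little of any gene. In them and in lymphoid-primed-like cells Tnfaip2 had log2 fold changes in Dnmt3a against MxCre of -0.68 (adjusted p = 0.774), -0.55 (adjusted p = 0.25) and -1.02 (adjusted p = 0.081), for neutrophil-like, erythroid and lymphoid-primed-like cells. The neutrophil-like value rests on 45.04 and 77.5 CPM in those 2 Dnmt3a mice beside 95.5 to 99.1 in the 3 MxCre mice. Erythroid levels were 225, 214 and 197 CPM in MxCre and 176, 155, 136 and 85.8 CPM in Dnmt3a, without overlap.

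**Figure D2:**
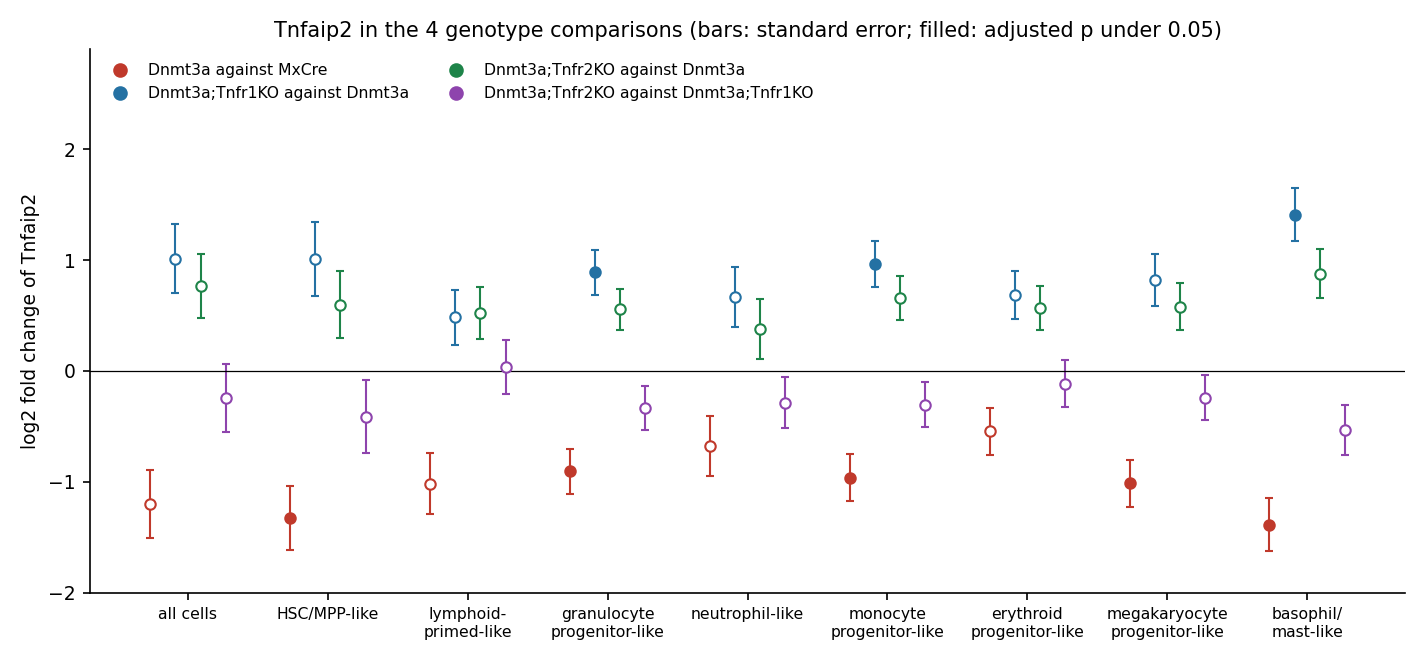
Log2 fold change of Tnfaip2 (vertical axis) in all cells and the 8 lineages (horizontal axis), coloured by genotype comparison, with bars for the standard error and filled points where the adjusted p was under 0.05. Each of the 9 estimates for Dnmt3a against MxCre is below 0, from -0.55 to -1.39, and each for Dnmt3a;Tnfr1KO against Dnmt3a is above 0, from 0.49 to 1.41.

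Whether the size of the Tnfaip2 difference varied between lineages was tested for each mouse as its change from HSC/MPP-like cells on the log2(CPM + 1) scale, a test chosen after the values were seen. Of 7 lineages in Dnmt3a against MxCre, the exact two-sided permutation test gave its lowest p in erythroid cells (a fall smaller by 0.68, p = 0.0286, the smallest this design allows, adjusted p = 0.2). In Dnmt3a;Tnfr1KO against Dnmt3a the lowest adjusted p was 0.7. With 7 tests a single lineage cannot reach an adjusted p below 0.2 in this design, so the test could not have called 1 lineage. The genes within 500000 bases of Tnfaip2 were also looked at after its values were seen. Of 7 to 17 neighbours tested in a cell set, 1 was called in 1 of the 36 tests: Mark3, a kinase gene, higher in granulocyte progenitor-like cells of Dnmt3a than of MxCre (0.63, adjusted p = 0.0459).

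Of the subunits, Nfkb1 (the precursor of p50) had the highest UMI level in all cells, 66.8 ± 10.8 CPM (SD, n = 14), ahead of Rela (p65) at 25.8 ± 2.69, Rel (c-Rel) at 21.6 ± 5.73, Nfkb2 (p52 precursor) at 5.16 ± 1.01 and Relb at 1.92 ± 0.58. The SDs of Rela and Rel overlap, but both come from the same 14 libraries, and their difference within a library was not tested. In the main fit none of the 5, nor the main inhibitor Nfkbia (IkB alpha), was called in any genotype test, 36 tests each and 24 for Relb. A stricter lineage gate called Rel in HSC/MPP-like cells of Dnmt3a against MxCre, as given below. With no filter on low counts no subunit was called, but Nfkbia was in 10 tests, 5 of them higher in Dnmt3a;Tnfr1KO than in Dnmt3a, the group whose replicate 1 had the highest Nfkbia of the 14 libraries. The lowest adjusted p-values of the main fit (edgeR) were 0.243 for Nfkb1, 0.218 for Nfkb2, 0.174 for Rel, 0.18 for Rela, 0.212 for Relb and 0.0932 for Nfkbia.

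In all cells, Rel was 15.2, 19.4 and 17.2 CPM in MxCre and 31.3, 22.0, 22.7 and 27.7 CPM in Dnmt3a. The 2 groups did not overlap, yet the difference was not called (log2 fold change 0.49, SE 0.21, adjusted p = 0.174, edgeR). Against Dnmt3a, Rel was 0.16 in Dnmt3a;Tnfr1KO (adjusted p = 0.696) and -0.30 in Dnmt3a;Tnfr2KO (adjusted p = 0.346). Rela was 25.65, 29.1 and 30.6 CPM in MxCre and 26.1, 28.7, 24.2 and 25.2 CPM in Dnmt3a, overlapping (-0.21, SE 0.09, adjusted p = 0.18), and against Dnmt3a 0.15 and 0.08 in the Tnfr1KO and Tnfr2KO groups (adjusted p = 0.39 and 0.588). Nfkb1 was 57.0, 71.5 and 71.9 CPM in MxCre, 87.6, 77.7, 69.0 and 80.8 CPM in Dnmt3a, 50.8, 59.1 and 68.2 CPM in Dnmt3a;Tnfr1KO and 54.9, 66.2, 54.5 and 66.0 CPM in Dnmt3a;Tnfr2KO. Both receptor groups lay just below the lowest Dnmt3a mouse, and neither difference was called (-0.21, adjusted p = 0.243, and -0.17, adjusted p = 0.252). For Nfkb2 and Relb, the log2 fold changes in the 4 comparisons ran from -0.31 to 0.31 and from -0.44 to 0.10, with adjusted p of at least 0.428.

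In HSC/MPP-like cells no subunit was called either. The levels of Dnmt3a and MxCre did not overlap there for 5 of 28 members (Nfkbia, Rel, Relb, Bcl3 and Tnfaip2), 17.9% beside 18.8% of all genes, so the separation of Rel, Relb and Nfkbia is at the background. With a stricter lineage gate, Rel was called higher in Dnmt3a than in MxCre there (log2 fold change 0.71, adjusted p = 0.0241, edgeR), 1 of 2 calls among 23 members beside 4.41% of all genes. Nfkb1 averaged 89.6 ± 9.97 CPM in MxCre (SD, n = 3), 105 ± 13.8 in Dnmt3a (n = 4), 86.2 ± 6.25 in Dnmt3a;Tnfr1KO (n = 3) and 87.3 ± 6.66 in Dnmt3a;Tnfr2KO (n = 4). Rela averaged 38.8, 38.3, 36.5 and 36.2 CPM in the same order, and Rel 24.3, 33.4, 30.4 and 29.2 CPM. Nfkbia averaged 61.2 ± 3.98, 47.9 ± 5.59, 88.9 ± 68.7 and 61.6 ± 4.18 CPM. Its wide spread in Dnmt3a;Tnfr1KO came from 168 CPM in replicate 1, beside 45.3 and 53.5 in the other 2 mice.

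That library stood apart for several members. Nfkbia in all cells was 200 CPM in Dnmt3a;Tnfr1KO replicate 1 and between 38.5 and 76.2 CPM in the other 13 libraries, and replicate 1 was the highest library in all 9 cell sets. In erythroid progenitor-like cells it reached 443 CPM against 28.1 to 47.2 elsewhere, and in basophil/mast-like cells 780 CPM. The chemokines Cxcl2, Ccl3 and Ccl4 were also highest there, at 26.3, 19.0 and 22.2 CPM in all cells, where the other Dnmt3a;Tnfr1KO mice had 0.33 and 0.60, 1.87 and 1.74, and 4.32 and 4.08 CPM. These genes were named after their values were seen. A list of 11 immediate early genes that respond to cell handling summed to 875 CPM in this library and to 338 to 757 CPM in the others, and its part in these levels was not tested.

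**Figure D3:**
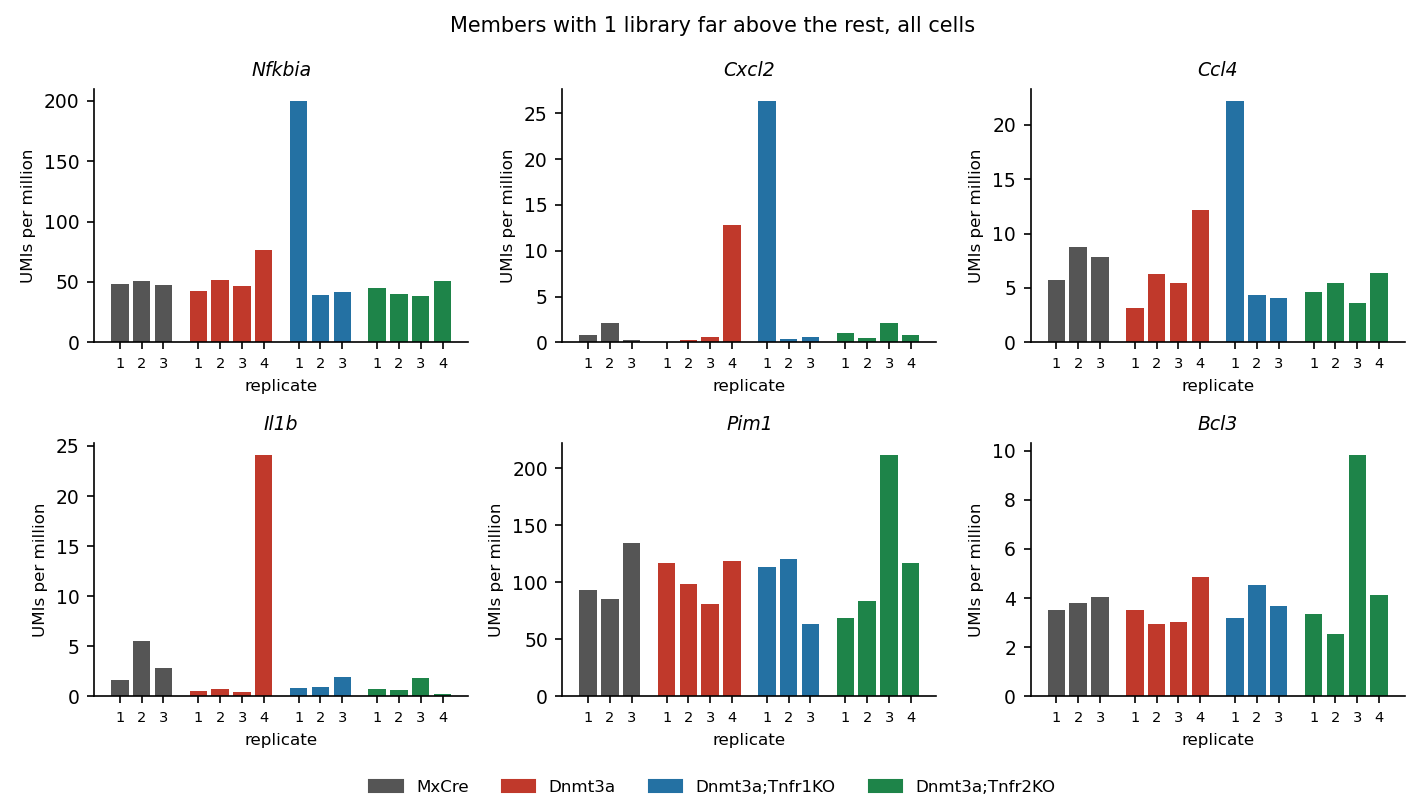
Levels in CPM (vertical axes, from 0) of Nfkbia, Cxcl2, Ccl4, Il1b, Pim1 and Bcl3 in all cells, with 1 bar for each of the 14 libraries, coloured by group and numbered by replicate. Nfkbia is 200 CPM in Dnmt3a;Tnfr1KO replicate 1, Il1b 24.1 in Dnmt3a replicate 4 and Pim1 212 in Dnmt3a;Tnfr2KO replicate 3, each above the other 13.

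Dnmt3a replicate 4 was the highest of the 14 libraries for 16 of the 39 members. For what share of all genes it was highest was not counted, so the 16 do not set the members apart. Il1b, the inflammasome-released interleukin, was 24.1 CPM there and between 0.25 and 5.51 CPM elsewhere, and Ccl5, a chemokine of T and NK cells, 25.3 CPM. The library's neutrophil marker sum was 32214 CPM (504 to 1267 in the other Dnmt3a mice), its erythroid sum 22000 (584 to 1228) and its B-progenitor sum 2938 (45.5 to 203), and their part in these levels was not tested. Without this library, Il1b was called lower in Dnmt3a than in MxCre in all cells (log2 fold change -2.68, adjusted p = 0.048, edgeR), 1 of 37 members where 3.18% of all genes were called in that fit. Neutrophil markers differed the same way: they summed to 4767 to 20952 CPM in MxCre, and neutrophil-like cells were 1.91%, 9.61% and 2.84% of the MxCre cells but 0.416%, 0.371% and 0.602% of the cells of the other 3 Dnmt3a mice. Their part in the Il1b difference was not tested. In Dnmt3a;Tnfr2KO replicate 3, Pim1, a survival kinase, was 212 CPM against 63.5 to 134 in the others, and Bcl3, an inhibitor-like coactivator, 9.82 against 2.52 to 4.86. Each was above all other libraries in 7 of the 9 cell sets.

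The median change of the members turned in direction in 3 of the 4 comparisons when 1 of these libraries was left out. The median log2 fold change of the 37 members in all cells was 0.10 in Dnmt3a against MxCre (all genes 0.03) and -0.20 without Dnmt3a replicate 4. In Dnmt3a;Tnfr1KO against Dnmt3a it was 0.16 (all genes -0.05), -0.15 without Dnmt3a;Tnfr1KO replicate 1 and 0.46 without Dnmt3a replicate 4. In Dnmt3a;Tnfr2KO against Dnmt3a;Tnfr1KO it was -0.31 (all genes 0.02) and, still below 0, -0.01 without Dnmt3a;Tnfr1KO replicate 1. In Dnmt3a;Tnfr2KO against Dnmt3a it was -0.16 (all genes -0.03) and 0.01 without Dnmt3a replicate 4.

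The summed level of the 39 members was close in the 4 groups. In all cells the members took 805 ± 23.0 CPM in MxCre (SD, n = 3), 845 ± 83.3 in Dnmt3a (n = 4), 868 ± 155 in Dnmt3a;Tnfr1KO (n = 3) and 780 ± 68.6 in Dnmt3a;Tnfr2KO (n = 4). Per mouse the sums were 779, 816 and 821 CPM in MxCre. They were 805, 797, 807 and 969 CPM in Dnmt3a, where replicate 4 is the high value. The libraries labelled Dnmt3a;Tnfr1KO had 1044, 815 and 747 CPM, and Dnmt3a;Tnfr2KO had 711, 750, 871 and 789 CPM. The ranges of these sums overlapped between all 4 groups. Without the 3 libraries that stood apart the means were 805, 803, 781 and 750 CPM. A group of 5 genes held 62.2% of the members' UMIs: Tnfaip8 (an apoptosis regulator), Sod2 (mitochondrial superoxide dismutase), Pim1, Nfkb1 and Nfkbia. The sum is therefore mostly the level of these 5. In erythroid progenitor-like cells the sum was 629 to 670.7 CPM in Dnmt3a, below MxCre (671.1 to 706) and Dnmt3a;Tnfr1KO (683 to 1367). In HSC/MPP-like cells the mean of the members' log2(CPM + 1) was 2.97 to 3.04 in Dnmt3a, below MxCre (3.13 to 3.21) and Dnmt3a;Tnfr1KO (3.14 to 3.39). In all cells that mean was 2.74 to 2.80 in Dnmt3a;Tnfr2KO, below Dnmt3a;Tnfr1KO (2.83 to 3.30) and MxCre (2.88 to 3.07). The other measure overlapped in each case, as did both in the other lineages and for Dnmt3a;Tnfr2KO beside Dnmt3a. These differences were not tested.

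**Figure D4:**
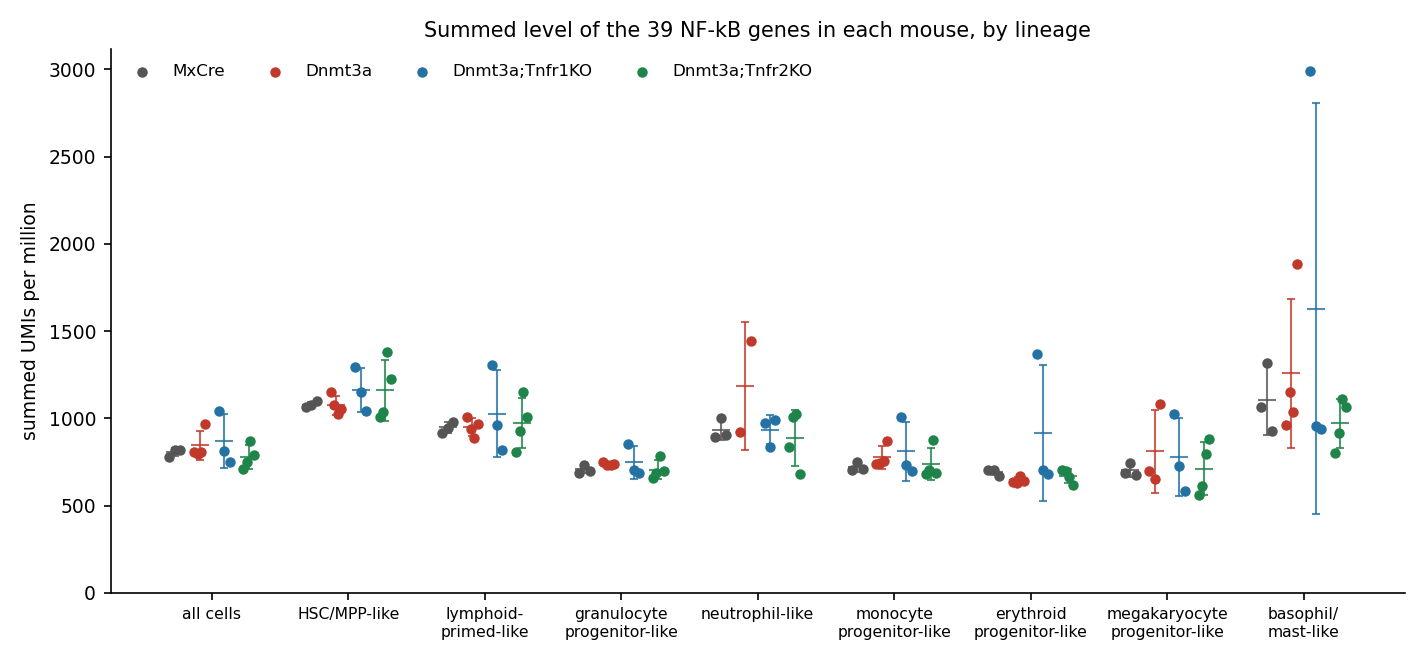
Summed level of the 39 members in CPM (vertical axis, from 0) in all cells and the 8 lineages (horizontal axis), coloured by group; each point is 1 mouse, each horizontal mark the group mean and each whisker the SD. The groups overlap in all cells, between 711 and 1044 CPM, and the basophil/mast-like value of 2989 CPM is Dnmt3a;Tnfr1KO replicate 1.

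Across lineages the sum differed more. It averaged 1223 ± 572 CPM in basophil/mast-like cells (SD, n = 14), 1120 ± 111 in HSC/MPP-like, 973 ± 127 in lymphoid-primed-like, 960 ± 181 in neutrophil-like (n = 12), 760 ± 92.8 in monocyte progenitor-like, 747 ± 161 in megakaryocyte progenitor-like (n = 13), 724 ± 49.8 in granulocyte progenitor-like and 721 ± 188 in erythroid progenitor-like cells. Without the 3 libraries that stood apart, HSC/MPP-like cells led at 1086 ± 65.3 CPM (n = 11), with basophil/mast-like cells at 1012 ± 138, lymphoid-primed-like at 927 ± 68.2 and erythroid lowest at 674 ± 33.0. From monocyte to erythroid progenitor-like cells, the means of neighbours in the order over all libraries lay within the SD between mice. The sums come from the same mice, and the difference between lineages within a mouse was not tested.

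Each lineage was then compared with HSC/MPP-like cells of the same mice, with the mouse as a block. Most genes differ in such a comparison, and 59.0% to 83.8% of all genes were called in the 7 comparisons, beside 61.5% to 96.4% of the members tested. The gap was widest in megakaryocyte progenitor-like cells (22 of 24 members, 91.7%, beside 59.4%) and basophil/mast-like cells (24 of 26, 92.3%, beside 59.0%), and the difference in share was not tested. Of the 155 member calls, 13 were of genes too low to test within 1 of the 2 cell sets, which entered through the set where they were high and so had to differ. They were Il1b, Icam1 and Ccl4 in neutrophil-like, Nlrp3 in monocyte progenitor-like, Bcl3, Ccl4, Ebi3 and Tnfsf9 in erythroid, Relb and Bcl3 in megakaryocyte, and Il6, Cxcl10 and Bcl3 in basophil/mast-like cells. Their values and the counts that hold them are therefore a description. Directions and sizes are of edgeR's TMM-scaled fold changes, except where plain means are named. A size can differ from the ratio of the plain CPM beside it. Nfkbia in neutrophil-like cells had a log2 fold change of 2.12 but 1.21 in the plain CPM ratio. Of the member calls none turned with another scaling (RLE), and 11 turned in the plain CPM ratio, 6 of them in neutrophil-like cells, where the median of all genes was -0.16.

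Among subunits, Relb was lower than in HSC/MPP-like cells in the 4 lineages where it was high enough to test within both cell sets, Nfkb1 lower in 6 of 7 and Rela in 5 of 7. Nfkb1 averaged 92.5 ± 11.9 CPM in HSC/MPP-like and 50.3 ± 11.7 CPM in erythroid progenitor-like cells (log2 fold change -0.64, SE 0.07), and was at 0.02 in lymphoid-primed-like cells (adjusted p = 0.763). Rela fell most in granulocyte progenitor-like cells, from 37.4 to 19.8 CPM (-0.54, SE 0.04). Relb, the partner of p52 in the alternative pathway, fell in those cells from 4.39 to 0.57 CPM (-2.55, SE 0.17). Nfkb2 was lower in 3 lineages, with granulocyte progenitor-like cells the lowest (-0.73), and higher in neutrophil-like cells (0.53, SE 0.20), where 4 of 12 mice were higher in plain CPM.

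Rel diverged the most of the subunits. Its mean was 29.6 ± 6.84 CPM in HSC/MPP-like cells (SD, n = 14) and 2.56 ± 3.12 CPM in erythroid progenitor-like cells, a fall of 3.62 on the log2 scale (SE 0.24, lower in 14 of 14 mice). In megakaryocyte progenitor-like cells it fell by 1.89 (SE 0.12) and in basophil/mast-like cells by 0.51 (SE 0.09). It was higher in lymphoid-primed-like cells (0.30, SE 0.07, 9 of 14 mice). In monocyte progenitor-like (0.18) and neutrophil-like cells (0.60) the call was higher under TMM and RLE but the plain CPM ratio was lower.

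**Figure D5:**
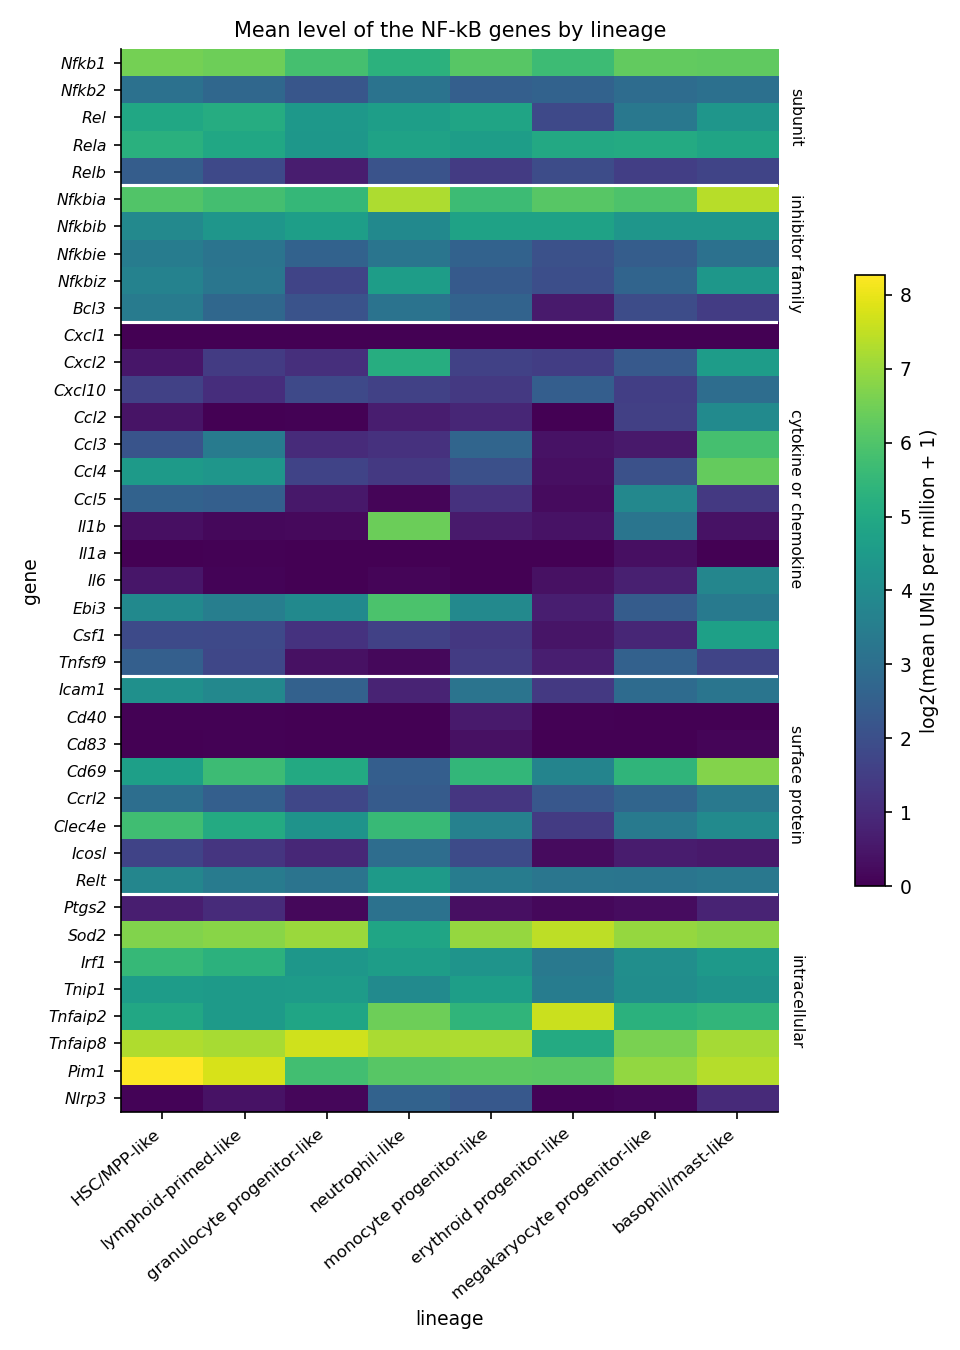
Mean level of each member over the mice, as log2(mean CPM + 1) (colour), with the 39 members in rows by role and the 8 lineages in columns. Pim1 has 308 CPM in HSC/MPP-like cells, Tnfaip2 195 CPM in erythroid progenitor-like cells and Il1b 83.7 CPM in neutrophil-like cells, while Rel drops from 29.6 CPM in HSC/MPP-like to 2.56 CPM in erythroid progenitor-like cells.

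Neutrophil-like cells had 13 members higher and 6 lower of 22 tested, beside 35.6% and 46.6% of all genes. Il1b averaged 0.28 CPM in HSC/MPP-like cells of the same 12 mice and 83.7 ± 66.7 CPM here, 8.20 apart on the log2 scale in these means, with 272 CPM in Dnmt3a replicate 4 and 69.1 ± 34.5 on average without the 3 libraries that stood apart. All 5 inhibitor-family genes were higher under TMM (Nfkbia 2.12, SE 0.10, 66.1 to 153 CPM, and Nfkbiz 1.87), although Bcl3, Nfkbib and Nfkbie turned in the plain CPM ratio. Ebi3, a cytokine subunit, rose by 2.9 on this scale, from 14.1 to 59.8 CPM, and Tnfaip2 by 2.29. Icam1, the leukocyte adhesion ligand, averaged 0.76 CPM and Ccl4 1.60 CPM, and Cd69 fell by 1.44, Pim1 by 1.24 and Sod2 by 0.93. Of the 10 handling-stress genes tested here, 6 were higher and 3 lower, and their part in these levels was not tested.

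Basophil/mast-like cells had 12 members higher and 12 lower of 26, beside 30.2% and 28.7% of all genes. The cytokine Il6, too low to test within HSC/MPP-like cells, averaged 0.42 CPM there and 12.9 ± 7.16 CPM here. Csf1, the macrophage growth factor, rose from 2.63 to 25.1 ± 5.47 CPM (3.22, SE 0.15), and Ccl3 from 3.39 to 55.5 ± 77.4 CPM (3.81, SE 0.28), each in 14 of 14 mice. Ccl3 was 28.1 ± 26.7 CPM without the 3 libraries that stood apart. Cd69, an activation receptor, rose by 2.05, from 24.6 to 106 CPM (81.4 without those 3 libraries). Ccl4 rose by 1.49, to 79.3 ± 102 CPM, with 295 and 327 CPM in Dnmt3a replicate 4 and Dnmt3a;Tnfr1KO replicate 1. Without the 3 libraries Ccl4 was 40.6 ± 31.9 CPM here and 20.03 in HSC/MPP-like cells. Nfkbia rose by 1.28 (SE 0.12, 14 of 14 mice), to 108 ± 28.6 CPM without those libraries. Clec4e (Mincle, a pattern receptor) fell by 1.75, Irf1 by 1.03, Icam1 by 0.94 and Pim1 by 0.84. The stress list also differed here, with 9 of 10 genes higher and 0 lower, and its part in these levels was not tested.

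Erythroid progenitor-like cells had 3 members higher and 18 lower of 24, beside 37.9% and 38.7% of all genes. Tnfaip2 rose from 30.4 ± 12.8 to 195 ± 54.5 CPM (2.98, SE 0.14, 14 of 14 mice), Nfkbib by 1.15 and Sod2 from 104 to 174 CPM (0.99). Ccl4 averaged 22.0 CPM in HSC/MPP-like and 0.26 CPM in erythroid cells, and Ebi3 14.1 and 0.60 CPM. Clec4e fell by 4.86, from 52.2 to 1.68 CPM. Icam1 fell by 3.29. Megakaryocyte progenitor-like cells, in 13 mice, had 4 higher and 18 lower of 24, beside 28.6% and 30.8%. There Cd69 (0.52), Nfkbib (0.48), Sod2 (0.26) and Tnfaip2 (0.22) were higher. In this lineage the surface-protein members, Cd69 among them, summed to 263 CPM in Dnmt3a replicate 3 and to 24.0 to 124 CPM in the other mice. The part of that library in the Cd69 value was not tested. Clec4e fell by 3.11, Ccl4 by 2.76, Ebi3 by 1.63 and Irf1, an interferon regulator, by 1.54, from 45.1 to 16.0 CPM.

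Granulocyte progenitor-like cells had 7 members higher and 19 lower of 28, beside 42.1% and 41.7% of all genes. Of the 5 subunits 4 were lower, as were 4 of the 5 inhibitor-family genes. Nfkbib (1.14), Cd69 (0.78), Tnfaip8 (0.76), Sod2 (0.67) and Ebi3 (0.35) were higher. Ccl4 fell by 2.98, Pim1 by 2.23, from 308 ± 89.9 to 53.0 ± 27.3 CPM, Nfkbiz by 2.0, Icam1 by 1.40 and Clec4e by 1.16. Nfkbia differed little (-0.17, SE 0.06, adjusted p = 0.0101).

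Monocyte progenitor-like cells had 11 members higher and 16 lower of 28, beside 41.4% and 42% of all genes. Nfkbib rose by 1.20, from 13.8 to 26.5 CPM, Cd69 by 1.17, Tnfaip2 by 0.75, Sod2 by 0.51 and Tnip1, an inhibitor of the pathway, by 0.36. Nlrp3, the inflammasome sensor, named after its value was seen, averaged 3.90 ± 2.23 CPM here and 0.051 CPM in HSC/MPP-like cells. Ccl4 fell by 2.87, Clec4e by 1.93, Pim1 by 1.92, Nfkbiz by 1.28 and Irf1 by 1.01. Lymphoid-primed-like cells were nearest to HSC/MPP-like cells in counts, with 5 higher and 11 lower of 26, beside 29.4% and 29.7%. Cd69 rose by 1.10, from 24.6 to 49.9 CPM, Nfkbib by 0.58 and Sod2 by 0.19, and Clec4e fell by 0.64, Pim1 by 0.40, Tnfaip2 by 0.38, Nfkbiz by 0.34 and Relt by 0.27. Over the 7 lineages, Pim1 was lower in 7 and Nfkbib, the slower inhibitor IkB beta, higher in 7, the plain CPM ratio of Nfkbib in neutrophil-like cells excepted.

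Other genes of the pathway were compared between genotypes from lists. In all cells, 0 of 24 signalling genes upstream of NF-kB, 0 of 12 feedback genes and other targets, 0 of 11 handling-stress genes and 0 of 12 interferon-response genes were called in each of the 4 comparisons, where 2.5%, 0.474%, 0.826% and 0.198% of all genes were. At these shares about 1 call or fewer in a list would match the background, so the counts of 0 do not set them apart. Within lineages, 4 of 1668 gene tests of the 4 lists gave a call, beside 0% to 5.8% of all genes in a comparison. In HSC/MPP-like cells of Dnmt3a against MxCre, where 4.73% of all genes were called, 1 of 9 feedback genes and 1 of 11 interferon-response genes were: Ltb (lymphotoxin beta, a TNF family ligand) fell by 1.03 on the log2 scale (adjusted p = 0.0159, edgeR) and the interferon-induced Rsad2 by 1.01 (adjusted p = 0.0295). In granulocyte progenitor-like cells of Dnmt3a;Tnfr2KO against Dnmt3a, where 5.17% were called, 1 of 12 feedback genes and 1 of 11 interferon-response genes were: Cyld, a deubiquitinase that restrains the pathway, fell by 0.41 (adjusted p = 0.0417) and the interferon-induced Ifit2 by 0.63 (adjusted p = 0.0166).

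Interferon-response genes were lower than in HSC/MPP-like cells for 11 of 11 tested in lymphoid-primed-like, granulocyte and monocyte progenitor-like cells, with medians of -0.70, -2.18 and -2.21, where 29.7%, 41.7% and 42% of all genes were lower. The corresponding counts were 8 of 11 in erythroid, 8 of 11 in megakaryocyte and 10 of 11 in basophil/mast-like cells, beside 38.7%, 30.8% and 28.7% of all genes, and 3 of 9 in neutrophil-like cells, beside 46.6%. No difference between lists was tested. Upstream signalling genes were split, with 11 higher and 10 lower of 24 in granulocyte progenitor-like cells, beside 42.1% and 41.7% of all genes. In neutrophil-like cells 11 were higher and 5 lower of 21, beside 35.6% and 46.6%.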

How the data were processed

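The files hold whole-number UMI counts per gene and cell, deposited by the authors for each of the 14 mice; per the file headers they come from Cell Ranger 6.0.0, and the submitters' processing notes name bcl2fastq 2.20.0.422 and mm10 (GRCm38). Barcodes needed 1000 UMIs, 500 detected genes and a mitochondrial share below 10% to be kept, and doublets called at 0.8% per 1000 cells (3143 barcodes) were removed. A cell joined a lineage when its mean clipped z over the markers was above 0.5, led the next lineage by 0.25 and rested on at least 3 detected markers. This scoring rule was set after the matrices were seen, and the members and gene lists were chosen with earlier results of these data known. UMIs were summed per mouse, or per mouse and lineage with at least 20 cells. edgeR 4.0.16 (R 4.3.3, quasi-likelihood test, TMM factors, filterByExpr) was fitted to all genes over the 14 libraries in 1 model; p-values were Benjamini-Hochberg adjusted over all genes tested, with calls under 0.05. Lineages were compared with HSC/MPP-like cells with the mouse as a block. CPM in the text are plain, without TMM factors, and the spread between 3 or 4 mice a group (2 for Dnmt3a in neutrophil-like cells) limits precision. Replicate numbers gave no pairing. The rule for named genes took every member called between genotypes, Nfkbia and the subunits in every comparison, and per lineage the 5 highest and 5 lowest called members of at least 10 CPM. Alternatives were DESeq2 1.42.0, RLE factors, no filter, 2 groups only, a replicate block, each library left out, doublets kept, a stricter gate (above 1.0, margin 0.5) and a mean of log2 levels. No sequences are printed.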

Additional observations from a re-analysis of the deposited data

Results flagged for a closer look

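In 104 groups of 4 mice, a level was set beside the other 3 of its group, and 12 had 1 mouse whose distance to the nearest other took most of the group's range (Dixon's test at 95%); chance gives this for about 1 in 20 groups. Dnmt3a replicate 4 gave 8 of the 12. In all cells its summed level of the 39 members was 969 CPM beside 797 to 807 in the other Dnmt3a mice, and in monocyte progenitor-like cells 871 CPM beside 737 to 753. Its Il1b was 24.1 CPM (others 0.42 to 0.71), Cxcl2 12.8 (0.013 to 0.54), Nfkbiz 12.9 (3.93 to 4.99), Icam1 11.2 (7.10 to 7.67), Nfkbie 9.51 (6.68 to 6.86) and Ptgs2, the inducible cyclooxygenase, 2.64 (0.29 to 0.58). Dnmt3a replicate 1 had Tnip1 at 26.05 CPM beside 20.4 to 21.4. Among Dnmt3a;Tnfr2KO mice, replicate 3 had a summed level of 874 CPM in monocyte progenitor-like cells beside 681 to 703. Replicate 1 had Nlrp3, the inflammasome sensor, at 1.10 CPM beside 0.42 to 0.51, and Cd40 at 0.125 CPM beside 0.018 to 0.021.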

How the results depend on the processing

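The number of members called, 0 or 1 in each of the 36 genotype tests, kept its value under RLE factors in all 36. DESeq2 moved 9, to 1 or 2, and no filter on low counts moved 23, to 1 to 6 (1, 2, 3, 4, 5 or 6). Over the 36 tests, DESeq2 called 20 of 642 members given an adjusted p (3.12%, beside 4.28% of all genes), and no filter called 6.75% of members beside 1.51%. The shares were 0.8% beside 1.21% with RLE, 1.19% beside 0.523% with 2 groups only, 0.886% beside 1.11% with doublets kept, 0.8% beside 0.939% with the block, and, over 32 tests, 1.12% beside 1.06% with the stricter gate. With only the 2 groups compared, 2 moved (HSC/MPP-like cells of Dnmt3a;Tnfr1KO against Dnmt3a to 2, lymphoid-primed-like of Dnmt3a against MxCre to 1), with doublets kept 1 (the former, to 1), and with the stricter gate 3 (to 2 with Rel in HSC/MPP-like cells, to 1 with Clec4e in lymphoid-primed-like cells, and to 0 in monocyte progenitor-like cells, where 4.41%, 0.132% and 0.923% of all genes were called). Leaving out 1 library gave from 0 to 2 calls. The replicate block moved 4: to 1 in all cells of Dnmt3a against MxCre and in basophil/mast-like cells of Dnmt3a;Tnfr2KO against Dnmt3a, and to 0 for both calls in monocyte progenitor-like cells. The 19 same-numbered pairs had correlations from -0.29 to 0.25, 6 of them over 0.1, and 2 of 14 libraries correlated best with their own number, so the numbers were not taken as pairing. In all cells, all genes called in the 4 comparisons numbered 1520, 907, 1103 and 103 with DESeq2, 8, 70, 17 and 42 with 2 groups only, 147, 35, 127 and 31 with the block, 411, 136, 141 and 31 with RLE, and from 1 to 1274, 8 to 326, 31 to 801 and 18 to 77 with 1 library left out. The stricter gate moved the summed level to 1137, 1162 and 1318 CPM in HSC/MPP-like cells of MxCre, Dnmt3a and Dnmt3a;Tnfr1KO, and to 1038 and 655 CPM in lymphoid-primed-like and megakaryocyte progenitor-like cells of MxCre; it could not be run for all cells. In all cells, the mean of the members' log2 levels gave the same signs as the summed level, with differences of 0.05, 0.005, -0.23 and -0.23 beside 0.06, 0.03, -0.11 and -0.14. Within lineages the signs differed in some comparisons. In basophil/mast-like cells, Dnmt3a and MxCre had sums of 1258 and 1104 CPM but mean log2 levels of 3.295 and 3.356. In monocyte progenitor-like cells, Dnmt3a;Tnfr1KO and Dnmt3a had 811 and 776 CPM but 2.80 and 2.86. In erythroid progenitor-like cells, Dnmt3a;Tnfr2KO and Dnmt3a had 670 and 645 CPM but 1.94 and 2.03. The members' counts in the lineage comparisons stayed within 1.5 times under each alternative run. Why these counts moved was not tested. Depth limits the rarer lineages: neutrophil-like sums held as few as 181042 UMIs a library.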

Other observations

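Some lineages were too rare to test, and their pooled levels are given as values over all libraries. They were looked at after the main results were seen. T/NK-like cells, 247 in all, held 63.6% of the UMIs of Ccl5, a chemokine of cytotoxic lymphocytes, at 3472 CPM, while mature B-like cells had 0 UMIs of it. Dnmt3a replicate 4 gave 92 of these cells, and without it the share was 53.6% and the level 3028 CPM. The 621 mature B-like cells held 34.1% of the UMIs of Cd40, the costimulatory receptor of B cells, at 62.9 CPM. Of these cells, 311 came from Dnmt3a;Tnfr1KO replicate 2, and without it the share was 24.8% and the level 68.5 CPM. The same cells had 73.7 CPM of Icosl and 54.9 CPM of Cd83, both surface proteins that act on T cells, and 138 CPM of Rel, 63.8 CPM of Nfkb2 and 43.2 CPM of Relb, where HSC/MPP-like cells averaged 29.6, 7.46 and 4.39 CPM. Without that library these 5 genes had 66.7, 51.3, 152, 77.01 and 47.9 CPM in the same order. The 96 stromal-like cells had 142 CPM of Csf1.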
